A study of Homo sapiens with 12 samples.

Results

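To follow the mRNA of PML nuclear bodies and of the SUMO pathway in 2 leukemia cell lines, 8 genes were taken by symbol from the 20003 genes measured. They are PML, SP100, SP110, SP140, DAXX, SUMO2, SUMO3 and RNF4, and all 8 had a value in every sample. NB4 cells were grown from an acute promyelocytic leukemia (APL) and express the PML-RARα fusion, and Kasumi-1 is a cell line of acute myeloid leukemia with t(8;21) that expresses AML1-ETO. Each line gave 3 control samples with DMSO and 3 samples with 1 μM OGP46, a kaurene diterpenoid made from oridonin. The labels and the methods give 48 h of incubation, and a longer time stands in another passage of the publication. mRNA was measured as FPKM, fragments per kilobase of exon scaled to the mapped fragments of a library, so a level is already divided by exon length. Each group is 1 cell line from a single patient's leukemia, so a difference between NB4 and Kasumi-1 is a difference between these lines. The publication describes its experiments as repeated independently. The labels do not say whether the 3 samples of a group were separate cultures, so p-values measure the spread between these samples, which may in part be technical.

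PML, the TRIM family protein that builds the shell of the nuclear body, is modified by SUMO and holds partner proteins there through SUMO-binding motifs. In APL the t(15;17) translocation joins PML to RARA, and the fusion protein disperses the bodies into small speckles. SUMO2 and SUMO3 are close paralogs that form chains on PML, and RNF4 is a ubiquitin ligase that recognises such chains and sends the modified protein to the proteasome. That route removes PML-RARα when APL cells receive arsenic trioxide. SP100 and its relatives SP110 and SP140 are interferon-inducible chromatin readers, and DAXX is a chaperone of histone H3.3. In the data, reads of the fusion count towards PML in NB4 cells wherever they lie on PML exons, and they cannot be told apart from reads of the normal PML allele.

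The FPKM of all genes summed to 248207 to 291523 in NB4 and to 279802 to 310262 in Kasumi-1 samples, and the numbers of reads behind these values are unknown. All 6 myeloid precursor markers checked averaged 1 FPKM or more in the controls of both lines, and 5 did in NB4 with OGP46. As a fold from log2(FPKM + 0.1), ELANE in NB4 controls stood at 0.0021 times its Kasumi-1 control level, of the size of the other-line signal given below. Its mean there does not by itself show that NB4 cells express it, and the part of that signal in it was not tested. RUNX1T1, the ETO partner of AML1-ETO, lay at 8.38 to 8.73 FPKM in Kasumi-1 controls and at 0 to 0.0762 FPKM in NB4 controls, and so set the lines apart as labelled. RARA lay at 4.32 to 5.32 FPKM in NB4 controls and 1.43 to 1.68 FPKM in Kasumi-1 controls, and since both lines express PML and RARA, FPKM per gene do not show the NB4 fusion itself. In 2 libraries, genes nearly silent in one line but strong in the other were seen at a higher share of the other line's control level than in the rest. The median share over these genes was 1.26% in NB4 control 3 and 1.59% in Kasumi-1 control 2, against 0.0742% to 0.312% in the other 10 libraries. Results of the 8 genes that involve these controls are therefore also given without them where this moves them.

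Within each of the 4 groups the genes stood in 1 order of mean level. SUMO2 was highest, followed by SUMO3, RNF4, DAXX, PML, SP100, SP110 and SP140. Neighbours in this order did not overlap in their sample values, with the exception of SP100 and SP110 in the NB4 controls. The range was wide, from 298 FPKM for SUMO2 in Kasumi-1 control 2 to a listed 0 for SP140 in 5 Kasumi-1 samples. The plot of the 8 genes by sample shows this, with the cell line as the largest divide for 7 of the 8 genes and PML as the exception.

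**Figure D1:**
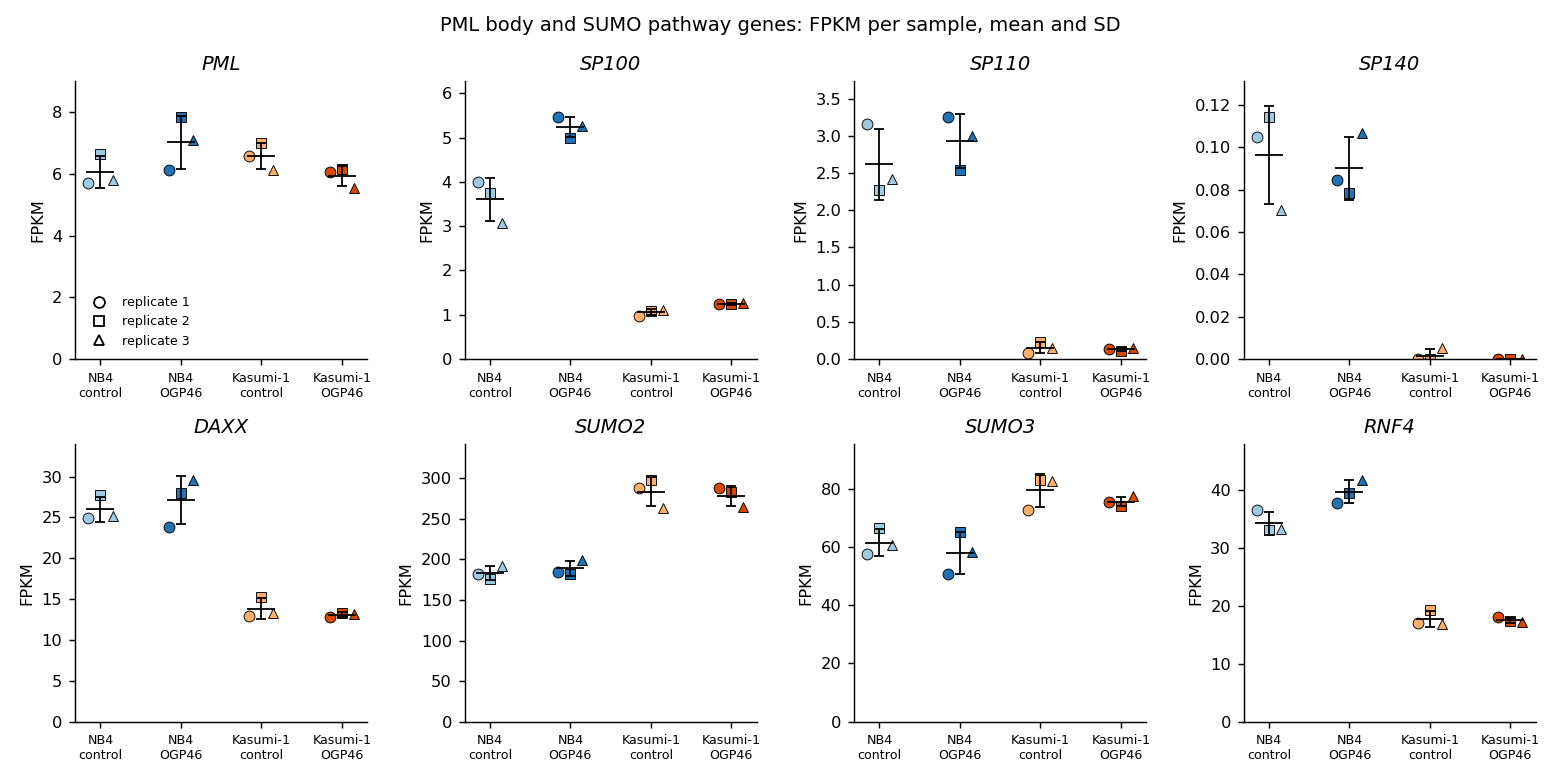
FPKM of the 8 genes (linear axes from 0, a scale of its own for each gene) in the 12 samples, with one symbol per replicate number and the mean with SD (n = 3) in black. PML lies between 5.55 and 7.83 FPKM in all samples, while SP100, SP110, SP140, DAXX and RNF4 are higher in every NB4 sample than in any Kasumi-1 sample, and SUMO2 and SUMO3 are lower.

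PML, on chromosome 15 from 73994673 to 74047812 (GRCh38, plus strand), was close in both lines. It was measured at 5.70, 6.65 and 5.81 FPKM in NB4 controls and at 6.59, 7.003 and 6.14 FPKM in Kasumi-1 controls. The groups overlapped, and the log2 fold change of NB4 against Kasumi-1 was -0.12 with a standard error (SE) of 0.10 and a 95% interval from -0.34 to 0.10 (limma, adjusted p = 0.288). RARA, the other partner of the NB4 fusion, was higher in NB4 controls by 1.502 on the log2 scale (adjusted p = 6.1e-06). The PML level was 1.25 to 1.33 times the RARA level in the NB4 controls and 3.66 to 4.62 times in the Kasumi-1 controls.

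The SP100 family showed the widest differences between the lines. SP110, SP140, SP140L and SP100 lie side by side on chromosome 2 between 230167293 and 230544090 (GRCh38). SP110 is on the minus strand and the others on the plus strand, and SP110 and SP140 share exon bases on opposite strands. The kit marked strand, but the sources used here do not give the strand setting of the counting, so a part of the SP110 and SP140 values may come from the partner gene. SP140L, a close relative, was not among the 8 genes but completes the cluster.

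**Figure D2:**
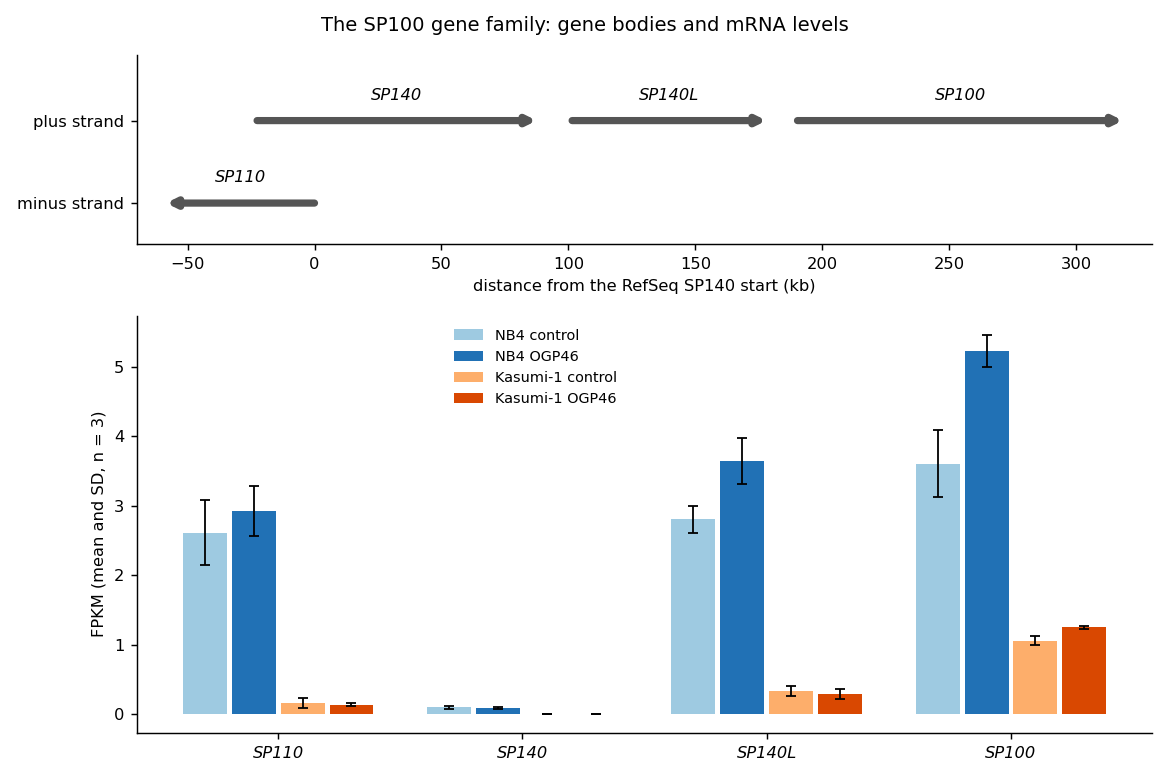
Gene bodies of the SP100 family drawn to scale on both strands as GENCODE release 29 places them, in kb from the RefSeq start of SP140, above mean FPKM with SD (n = 3) in the 4 groups (linear axis from 0). The bars of NB4 stand above those of Kasumi-1 for all 4 genes, and OGP46 has the higher SP100 bar within NB4, 5.24 against 3.61 FPKM.

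SP110 was measured at 3.15, 2.27 and 2.42 FPKM in NB4 controls and at 0.0806, 0.226 and 0.145 FPKM in Kasumi-1 controls. All NB4 controls lay far above all Kasumi-1 controls, and the mean level was 17.4 times as high. On the scale of log2(FPKM + 0.1), where the pseudocount of 0.1 shrinks differences of low genes, the fold change was 3.47 (SE 0.23, adjusted p = 1.6e-06), and it ran from 1.65 with a pseudocount of 1 to 4.12 with 0.01. The highest Kasumi-1 value was that of control 2, the library with more signal of the other line, and without NB4 control 3 and Kasumi-1 control 2 the log2 fold change was 3.72.

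SP100, a nuclear body protein also known as an autoantigen, followed with 4.004, 3.75 and 3.07 FPKM in NB4 controls and 0.976, 1.09 and 1.103 FPKM in Kasumi-1 controls. The groups stood apart, with a mean 3.41 times as high in NB4 and a log2 fold change of 1.67 (SE 0.13, adjusted p = 4.9e-06). SP140L gave 2.81 ± 0.20 FPKM in NB4 and 0.335 ± 0.072 FPKM in Kasumi-1 controls (SD, n = 3), a log2 fold change of 2.75 (adjusted p = 6.2e-07). SP140, a reader known mainly from lymphocytes and macrophages, was listed at 0.105, 0.114 and 0.0703 FPKM in NB4 controls. In Kasumi-1 controls it was listed at 0, 0 and 0.00499 FPKM, and no fold is given. Its mean over the samples of each comparison was under the minimum of 0.1 FPKM, so it entered no test.

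The windows around the family's starts, from 250 bases before to 50 bases after, were read from the RefSeq promoter table (GRCh38.p14) because the 4 genes lie together and were all higher in NB4. Of the 8 genes, 6 matched with 9 windows in all. PML and DAXX are not in that table. The interferon-stimulated response element core GAAANNGAAA was searched on both strands by exact letters, with N for any base. Looser forms were not searched. The exact core was in none of the 9 windows, in 9 of 16 windows of a list of interferon response genes and in 3.57% of all 35116 windows. When the windows were read, an 8-base run, AAGTGAAA or TTTCACTT on the other strand, was seen in all 4 family genes, and as it was chosen after reading them its count is a description without a test. It does not overlap a match to the core, as there is none. It lay in 4 of the 9 windows of the 8 genes, all 4 of them of SP100, SP110 and SP140, and in the SP140L window, against 1.62% of all windows. Windows of SUMO2, SUMO3 and RNF4 held neither run. The sequences follow 5′ to 3′ on the strand of the gene with this run in capitals, to show how alike its surroundings are.
SP100, chr2:230415951-230416250, plus strand: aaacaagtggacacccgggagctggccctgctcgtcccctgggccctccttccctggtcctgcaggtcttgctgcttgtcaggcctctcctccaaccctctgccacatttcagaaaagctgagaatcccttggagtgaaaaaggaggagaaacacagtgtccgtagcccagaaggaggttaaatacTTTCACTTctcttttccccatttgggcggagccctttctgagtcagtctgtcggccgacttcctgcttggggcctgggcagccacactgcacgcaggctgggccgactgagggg
SP140L, chr2:230326943-230327242, plus strand: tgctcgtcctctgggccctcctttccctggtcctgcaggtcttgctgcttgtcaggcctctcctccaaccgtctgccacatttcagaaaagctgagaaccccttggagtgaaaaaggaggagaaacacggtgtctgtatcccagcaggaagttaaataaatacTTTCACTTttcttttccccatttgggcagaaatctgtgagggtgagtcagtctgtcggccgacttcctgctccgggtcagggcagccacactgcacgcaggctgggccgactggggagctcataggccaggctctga
SP140, chr2:230225486-230225785, plus strand: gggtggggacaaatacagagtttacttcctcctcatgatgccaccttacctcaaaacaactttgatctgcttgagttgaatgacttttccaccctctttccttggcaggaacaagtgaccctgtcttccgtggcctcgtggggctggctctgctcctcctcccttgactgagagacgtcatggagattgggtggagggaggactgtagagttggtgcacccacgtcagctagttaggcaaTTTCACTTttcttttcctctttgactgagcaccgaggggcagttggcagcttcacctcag
SP110, inner start, chr2:230219935-230220234, minus strand: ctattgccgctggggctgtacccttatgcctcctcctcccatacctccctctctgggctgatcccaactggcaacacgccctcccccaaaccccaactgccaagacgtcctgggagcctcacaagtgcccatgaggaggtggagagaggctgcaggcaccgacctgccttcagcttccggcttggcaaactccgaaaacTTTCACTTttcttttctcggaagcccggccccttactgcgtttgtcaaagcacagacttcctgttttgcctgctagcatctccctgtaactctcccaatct
The first base of the run is 64 bases before the SP100 start, 87 before that of SP140L, 10 before that of SP140 and 51 before the inner start of SP110. The outer SP110 start is 100 bases from the SP140 start on the opposite strand, their windows share 199 bases, and the run of the outer SP110 window is the same copy as that of SP140. The SP100 and SP140L windows share a run of 48 bases and 211 bases in runs of 10 or more, so these copies are related by sequence and are not independent. A match is a description of the letters, and whether a protein binds there was not tested.

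DAXX, on chromosome 6 from 33318558 to 33323016 (GRCh38, minus strand), was higher in NB4. It was measured at 24.99, 27.7 and 25.2 FPKM in NB4 controls and at 12.9, 15.3 and 13.4 FPKM in Kasumi-1 controls. Every NB4 control lay above every Kasumi-1 control, and the log2 fold change was 0.90 (SE 0.09, adjusted p = 1.5e-05). DAXX shares exon bases with AL662820.1 on the same strand, whose reads could have been divided between them.

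RNF4, on chromosome 4 from 2462220 to 2625320 (GRCh38, plus strand), gave 36.6, 33.1 and 33.2 FPKM in NB4 controls and 17.1, 19.3 and 16.9 FPKM in Kasumi-1 controls. NB4 cells had 1.93 times the Kasumi-1 level with no overlap, a log2 fold change of 0.95 (SE 0.08, adjusted p = 6.9e-06). RNF4 shares exon bases with CFAP99 and FAM193A in the annotation.

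The SUMO genes went the other way. SUMO2, on chromosome 17 from 75165586 to 75182983 (GRCh38, minus strand), was measured at 181.6, 175.4 and 192.5 FPKM in NB4 controls and at 288.4, 297.9 and 263.6 FPKM in Kasumi-1 controls. The groups did not overlap, and the log2 fold change was -0.63 (SE 0.08, adjusted p = 6.6e-05). It stood just past the minimum size of 0.58, and came to -0.57 when samples were centred on their median gene and to -0.42 when scaled to a common sum as TPM (transcripts in place of fragments), under the minimum in both. SUMO3, on chromosome 21 from 44805617 to 44818779 (GRCh38, minus strand), was measured at 57.5, 66.5 and 60.5 FPKM in NB4 controls and at 72.8, 83.0 and 82.6 FPKM in Kasumi-1 controls. It was also lower in all NB4 controls, with a log2 fold change of -0.37 (SE 0.08, adjusted p = 0.0030) that did not reach the minimum size. The annotation names 18 pseudogenes after SUMO2, which also shares exon bases with JPT1, so reads may have been divided between near-identical copies and its level is uncertain to that extent.

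The SUMO2 level was 2.64 to 3.18 times the SUMO3 level in the NB4 controls and 3.19 to 3.96 times in the Kasumi-1 controls. With OGP46 the ratio was 2.8 to 3.65 in NB4 and 3.42 to 3.83 in Kasumi-1 samples, which overlapped the controls of the same line. These ratios do not depend on the scaling of a sample, and they were chosen after the values had been seen.

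Of the 7 genes tested, 4 were called higher in NB4 controls (SP100, SP110, DAXX, RNF4) and 1 lower (SUMO2). To be called, a gene needed an adjusted p under 0.05 and a difference of 0.58 or more on the log2 scale, that is 1.49-fold. By the same rule 22.7% of all 12302 genes were higher and 29.7% lower in NB4, so a line difference was common, and the median of all genes was -0.10. Of 13 other PML body genes tested, 6 were called higher in NB4 (SP140L, HIPK2, CREBBP, TOPORS, TDG and USP7, from 2.75 to 0.78 on the log2 scale) and 1 lower (MORC3, -0.59), with a median of 0.46 against -0.10 over all genes. MORC3 was under the minimum size in 10 of 20 alternatives, among them each left-out library of NB4 control 2, NB4 control 3 and Kasumi-1 control 2 (-0.53, -0.53 and -0.56). HIPK2, a kinase that phosphorylates p53 and PML body proteins, had 4.32 ± 0.48 FPKM in NB4 and 0.855 ± 0.229 FPKM in Kasumi-1 controls (SD, n = 3).

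Of 11 genes that attach SUMO, 4 were called lower in NB4, namely RANBP2 (-1.51), NSMCE2 (-1.14), UBA2 (-0.78) and PIAS2 (-0.69), and 1 higher, SAE1 (2.07), with a median of -0.39 against -0.10 over all genes on the log2 scale. UBA2 and PIAS2 were under the minimum size under TPM scaling. SAE1 and UBA2 are the partners of the SUMO-activating enzyme, and they were called in opposite directions. Of 10 genes that remove SUMO or target it for ubiquitination, 3 were called higher (USPL1, SENP3 and SENP1, from 0.73 to 0.60) and 4 lower (SENP7, DESI2, SENP5 and SENP2, from -1.43 to -0.72), with a median of -0.36. SENP5 and SENP2 were under the minimum size under TPM scaling, and SENP1 was without NB4 control 1 (0.51). The genes of these lists named here for the cell lines, other than HIPK2, were chosen after their values were seen. Of 15 interferon response genes tested, 8 were called higher in NB4, among them IRF7 (1.63), and 2 lower, IFI44 (-0.90) and IFIT2 (-0.67), with a median of 0.62. IFIT2 lost its call without any 1 of NB4 control 2, NB4 control 3, Kasumi-1 control 1 or Kasumi-1 control 2 (-0.63 to -0.52).

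**Figure D3:**
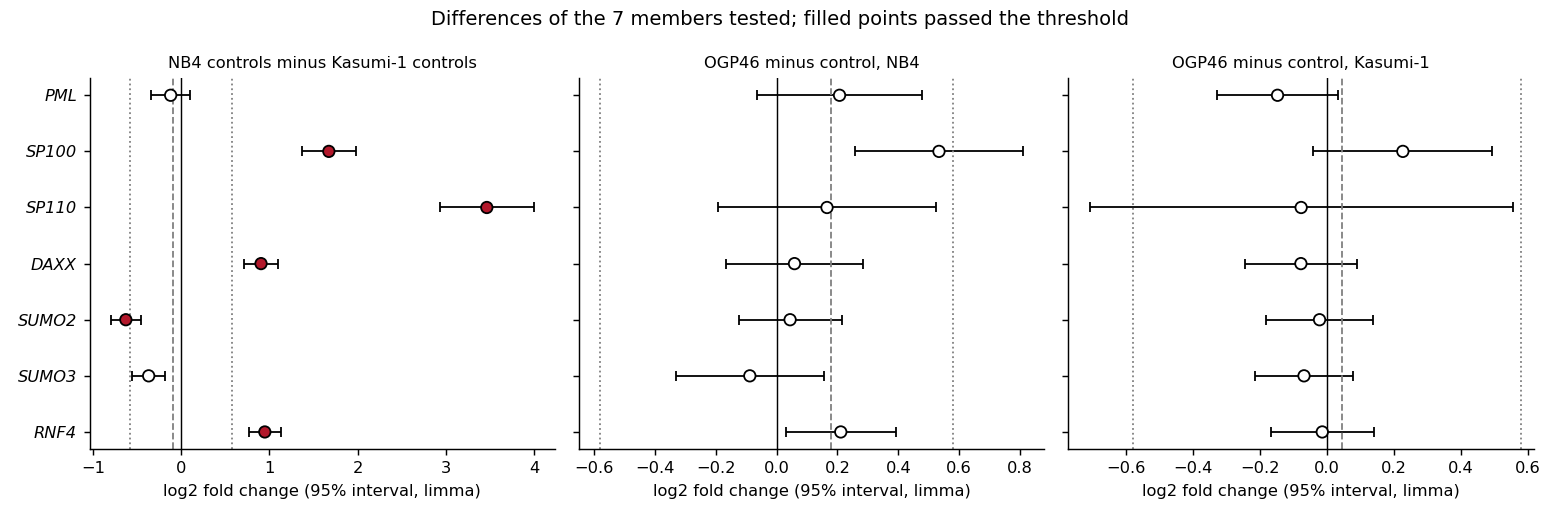
Log2 fold changes of the 7 genes tested, with 95% intervals from limma, for NB4 against Kasumi-1 controls and for OGP46 against control in each line. Filled points passed the threshold, dotted lines mark a size of 0.58 and the dashed line the median of all genes tested (-0.10, 0.18 and 0.05). Filled points occur in the left panel alone, and in the NB4 panel SP100 at 0.53 lies nearest to the minimum size. The line comparison shares its control samples with both OGP46 comparisons.

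To learn whether OGP46 moved these genes in NB4 cells, the 3 OGP46 samples were compared with the 3 controls. None of the 7 genes tested was called by limma, and 2, SP100 and RNF4, had an unadjusted p below 0.05, as 29.1% of all 11750 genes did. By the full rule 1.56% of all genes were called. With the replicate number as a block, 6.21% of all genes and again none of the 7 were called. The median of all genes was 0.18 with 81.9% of genes above 0, against a median of 0.17 with 6 of 7 genes above 0 here, close to each other. Centring each sample on its median gene brought the median of all genes to -0.02, and values relative to the median gene are given below from that setting.

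SP100 had the largest difference of the 7 with OGP46 in NB4. It was measured at 5.46, 4.99 and 5.26 FPKM with OGP46, against 4.004, 3.75 and 3.07 FPKM in the controls. All OGP46 samples lay above all controls, with a mean 1.45 times as high. The log2 fold change was 0.53 (SE 0.12, 95% interval 0.26 to 0.81, adjusted p = 0.0607). With the replicate block the adjusted p was 0.0061 at the same size, which stayed under the minimum of 0.58. Relative to the median gene it was 0.34, with an adjusted p of 0.239 and, with the block, 0.0354. Left-out libraries moved it from 0.43 to 0.61. The lowest value came without NB4 control 3, which held the most other-line signal of the NB4 samples.

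RNF4 also had all OGP46 samples, at 37.8, 39.6 and 41.8 FPKM, above all controls, with a log2 fold change of 0.21 (SE 0.08, adjusted p = 0.130, with the block 0.0921). Relative to the median gene it was 0.02. Of the 7 genes, SP100 and RNF4 were the 2 with no overlap in this direction, and 32.7% of all genes tested had none. PML was measured at 6.13, 7.83 and 7.08 FPKM with OGP46, which overlapped its controls, with a log2 fold change of 0.21 (SE 0.12, adjusted p = 0.267, with the block 0.128) and of 0.01 relative to the median gene. The PML level was 1.2 to 1.31 times that of RARA with OGP46. RARA itself had a log2 fold change of 0.25 (adjusted p = 0.267).

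On the deposited scale the other members showed smaller values with OGP46 in NB4. SP110 was measured at 3.25, 2.54 and 3.00 FPKM (0.17, 95% interval -0.19 to 0.52) and DAXX at 23.9, 28.0 and 29.6 FPKM (0.06, -0.17 to 0.29). SUMO2 was measured at 184.5, 182.5 and 199.7 FPKM (0.04, -0.12 to 0.21) and SUMO3 at 50.6, 65.1 and 58.4 FPKM (-0.09, -0.33 to 0.15). All 4 overlapped their controls, with adjusted p from 0.487 to 0.704, and the intervals exclude a change of 0.58 for each of them. Relative to the median gene SP110 came to -0.03, DAXX to -0.13 and SUMO2 to -0.15. SUMO3 ran from -0.28 to 0.0069 over the alternatives, under the minimum size in all of them. Its lowest adjusted p by limma over the alternatives was 0.0157. SP140 was listed at 0.0846, 0.0785 and 0.107 FPKM.

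Of the related genes, HIPK2 was called higher with OGP46 in NB4, with 6.92 ± 0.48 against 4.32 ± 0.48 FPKM (SD, n = 3), a log2 fold change of 0.67 (adjusted p = 0.0346, with the block 0.0017). It was the 1 of 13 other PML body genes called. The HIPK2 call was lost in 13 of 19 alternatives, among them median centring (0.48, adjusted p = 0.160) and each left-out library but NB4 OGP46 sample 2 (0.58 to 0.73, adjusted p from 0.0639 to 0.134). None of 11 SUMO conjugation genes, 10 SUMO removal genes or 14 interferon response genes was called by limma. With the block, 2 interferon response genes were called, IRF9, a part of the complex that carries the interferon signal, with 0.79 (adjusted p = 4.4e-04, without the block 0.120), and IRF7, an interferon regulatory factor, with 0.60 (adjusted p = 0.0028, without the block 0.111). Relative to the median gene and with the block, IRF9 came to 0.60 and stayed called, and IRF7 to 0.41. Monocyte and macrophage markers were compared in the same samples. Of 6 tested, all lay above 0, 3 were called higher (CD68, ITGAM and ITGAX, at 0.62, 1.08 and 1.11 on the log2 scale), and 5 were with the block. Over all genes, 81.9% lay above 0, 1.56% were called in either direction, and 6.21% were with the block. The calls of CD68, ITGAM and ITGAX were lost in 14, 10 and 10 of 19 alternatives, among them TPM scaling, median centring and quantile normalization without the block (adjusted p from 0.0908 to 0.221). The summed level of the 7 listed ranged from 16.02 to 17.3 FPKM in controls and from 25.3 to 29.6 FPKM with OGP46, and MRC1 was listed at 0 in all NB4 samples. The summed level of 6 myeloid precursor markers, led by MPO, ranged from 2633 to 3907 FPKM in controls and from 1634 to 2826 FPKM with OGP46, with overlap. Of these 6, 4 had values below 0 and 2 above (SPI1 at 0.27 and CEBPE at 0.02), none was called, and with the block 3 were called lower (ELANE, PRTN3 and AZU1), genes named here after their values were seen. In NB4 controls ELANE, PRTN3 and AZU1 stood at only 0.0021, 0.085 and 0.062 times their Kasumi-1 control level, as folds from log2(FPKM + 0.1). The share of Kasumi-1 signal was 0.102% to 1.26% in NB4 controls and 0.0742% to 0.0873% with OGP46. The part of that signal in these 3 lower values was not tested. Of the T cell markers, CD3D lay at 13.49 to 20.45 FPKM in controls and 22.47 to 34.65 FPKM with OGP46, while CD3E was at most 0.0608 FPKM and CD2 was listed at 0. Their part in the SP100 and RNF4 values was not tested, and in bulk RNA more cells of a kind cannot be told apart from more RNA per cell.

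In Kasumi-1 cells, none of the 7 genes was called by limma and none had an unadjusted p below 0.05. Of all 11835 genes 15.6% had one, and 0.0338% were called. With the replicate block the share over all genes was 0.617%, again with none of the 7. The median of the 7 was -0.07 with 1 above 0, against 0.05 over all genes with 62.0% above 0. SP100 was the 1 above 0, at 1.25, 1.23 and 1.27 FPKM with OGP46 against 0.976 to 1.103 FPKM in controls. Its OGP46 samples lay above all controls as they did for 17.4% of all genes, and the log2 fold change was 0.23 (SE 0.12, 95% interval -0.04 to 0.49, adjusted p = 0.388). No member had all OGP46 samples below all controls, against 5.23% of all genes. Of 13 interferon response genes tested in Kasumi-1, 12 lay above 0 and 1 below, with a median of 0.26, and none was called with or without the block. IRF9 had a log2 fold change of 0.43 (limma adjusted p = 0.0932, with the block 0.0349), under the minimum size.

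PML was measured at 6.05, 6.17 and 5.55 FPKM with OGP46 in Kasumi-1 cells, against 6.59, 7.003 and 6.14 FPKM in the controls. The highest OGP46 sample lay just above the lowest control, and the log2 fold change was -0.15 (SE 0.08, 95% interval -0.33 to 0.03, adjusted p = 0.403, with the block 0.219). That change came to -0.10 without Kasumi-1 control 2. DAXX was measured at 12.8, 13.3 and 13.1 FPKM, SUMO2 at 288.1, 283.2 and 264.8 FPKM, SUMO3 at 75.3, 74.2 and 77.4 FPKM and RNF4 at 18.03, 17.4 and 17.2 FPKM. Their log2 fold changes lay between -0.08 and -0.01, and the intervals of all 4 stayed within -0.25 and 0.14. Without Kasumi-1 control 2 the changes came to -0.0064 for DAXX, 0.015 for SUMO2, -0.036 for SUMO3 and 0.048 for RNF4. SP110 was measured at 0.139, 0.110 and 0.144 FPKM, and its interval from -0.71 to 0.55 left a change of 0.58 possible at this low level. Its log2 fold change of -0.08 became 0.13 without Kasumi-1 control 2. SP140 was listed at 0 in all 3 samples with OGP46.

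The effect of OGP46 was then compared between the lines as an interaction of line and treatment. None of the 7 genes, and 0% of all 12309 genes, was called by limma at an adjusted p below 0.05, while 1225 genes were higher and 123 lower in NB4 at an unadjusted p below 0.05. With the replicate block 1.93% of all genes and none of the 7 were called. PML had the largest of the 7 differences, 0.35 on the log2 scale (SE 0.14, 95% interval 0.04 to 0.67, adjusted p = 0.400, with the block 0.122). In NB4, PML was higher in each of the 3 OGP46 samples than in its same-numbered control, and in Kasumi-1 it was lower in each of the 3. The share of all genes with this pattern of pairs was not counted. Of all genes, 81.9% lay above 0 with OGP46 in NB4 and 62.0% in Kasumi-1. Relative to the median gene the PML difference was 0.22 (adjusted p = 0.825), and without NB4 control 3 and Kasumi-1 control 2 it was 0.28 (adjusted p = 0.914). SP100 differed by 0.31, SP110 by 0.24 and RNF4 by 0.23, and DAXX, SUMO2 and SUMO3 by 0.14, 0.07 and -0.02, with adjusted p from 0.440 to 0.965. SP140L, the relative in the SP100 cluster, also was higher in all 3 NB4 pairs and lower in all 3 Kasumi-1 pairs, with a difference of 0.54 (SE 0.22, adjusted p = 0.410, with the block 0.116). The median of the 7 was 0.23 and that of all genes 0.12.

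**Figure D4:**
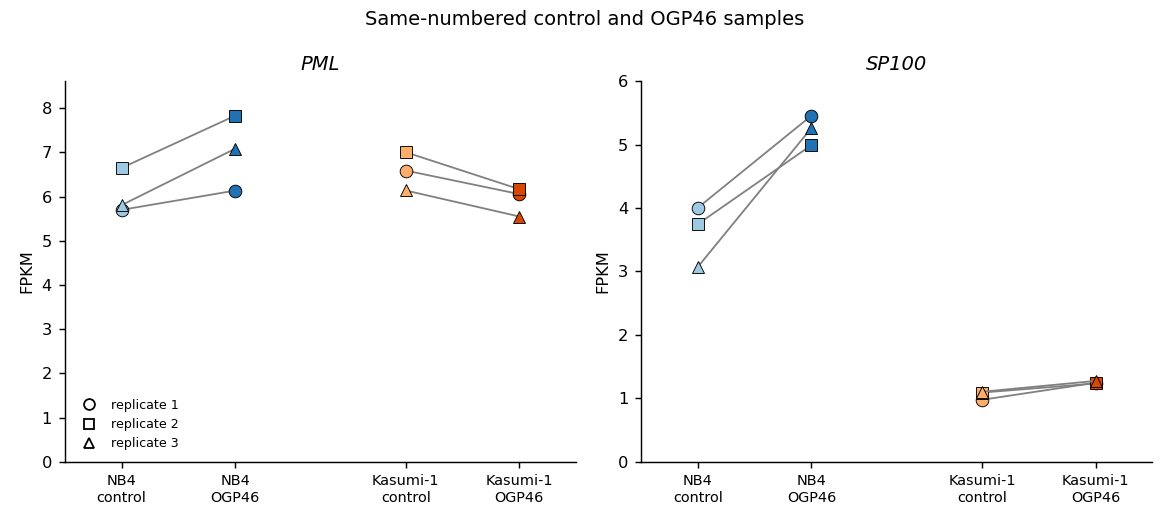
FPKM of PML and SP100 in same-numbered control and OGP46 samples (linear axes from 0), one line per replicate number. All 3 PML lines slope up in NB4 and down in Kasumi-1, while the SP100 lines slope up in both. Neither difference between the cell lines passed the threshold (adjusted p = 0.400 and 0.485).

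The genes whose levels varied most like PML were sought over the 12 samples after each line had been centred, among 9942 genes that averaged 1 FPKM or more. EBP, an isomerase of cholesterol synthesis, came first with a Pearson r of 0.962, followed by RHOF (0.952), RPUSD3 (0.949), DBN1 (0.948) and STRAP (0.926). Of the other members, DAXX was the nearest with 0.74 at rank 415, then RNF4 (0.577), SUMO3 (0.419), SUMO2 (0.328), SP100 (0.265) and SP110 (-0.028). The 12 points share the scaling of their libraries, so these values describe the samples and carry no p.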

How the data were processed

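mRNA was sequenced from NB4 and Kasumi-1 cells, 3 control and 3 OGP46 samples each. The authors selected poly(A) RNA, used a stranded kit and deposited FPKM per gene symbol. The submitters' processing notes name Trimmomatic, HISAT2, Cufflinks, HTSeq and hg38, without versions or roles. Annotation and strand setting are not given in the sources used here. Depth is unknown, so no counting interval is given. In each file, 27 symbols turned into dates were left out, which left 20003 genes. Gene positions are from GENCODE release 29 (GRCh38).

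log2(FPKM + 0.1) was compared by limma 3.58.1 in R 4.3.3 with a mean-variance trend. Genes that averaged 0.1 FPKM or more in the samples compared were fitted, with Benjamini-Hochberg adjustment over all of them. The fits were also run on simulated data with independent noise for each gene and sample. Those data held no shift common to a library and no likeness of same-numbered samples, so the run does not cover these. FPKM were used without further scaling. With 3 against 3 samples an exact permutation test cannot go below p = 0.1, so none was run.

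The study's methods name no pairing. Deviations of same-numbered control and OGP46 samples correlated in every pair, with r of 0.355, 0.622 and 0.197 in NB4 and 0.218, 0.157 and 0.395 in Kasumi-1. Some differently numbered samples did too, in NB4 control 1 with OGP46 sample 3 (0.224, above the 0.197 of the third pair) and control 3 with OGP46 sample 1 (0.175), and in Kasumi-1 control 1 with OGP46 sample 2 (0.101). Since every same-numbered pair was over 0.1, the replicate number as a block was taken as a second fit.

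The 8 genes and all lists were chosen with earlier results of these data known. One gene of the lists is not reported here. Beyond the 8, genes were named if called in an OGP46 comparison or its interaction (at most 4 per list), as fusion partners, or as the 5 most like PML. Alternatives were pseudocounts, filters, TPM scaling, median centring, quantile normalization, no trend, a joint model, subtraction of signal of the other line and left-out samples. Leaving out NB4 control 3 and Kasumi-1 control 2 together was chosen after seeing the data.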

Additional observations from a re-analysis of the deposited data

Results flagged for a closer look

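On the FPKM as deposited, the OGP46 difference of PML pointed opposite ways in the 2 lines. All 3 same-numbered pairs were higher in NB4 and all 3 lower in Kasumi-1. The share of all genes with this pattern of pairs was not counted. The difference of the PML effects was 0.355 on the log2 scale (n = 12 samples). By limma its unadjusted p was 0.0286 and its adjusted p over all genes 0.400, and with the replicate block 0.0068 and 0.122, so it did not pass the threshold. Over all alternatives it kept its sign and lay between 0.21 and 0.45. In NB4 the PML value itself was 0.01 relative to the median gene and -0.0043 under quantile normalization. As deposited, 81.9% of all genes lay above 0 with OGP46 in NB4 and 62.0% in Kasumi-1.

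SP140L met the same condition, with a difference of 0.54 (adjusted p = 0.410, with the block 0.116) and a range of 0.29 to 0.68. ITGAM, one of the monocyte markers, had a difference of 0.937 (limma adjusted p = 0.152, with the block 0.0342). It averaged under 0.1 FPKM in the Kasumi-1 samples and was not tested there. At that level, with a pseudocount of 0.1, a change in Kasumi-1 could hardly show. This difference therefore does not tell whether the lines respond differently.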

How the results depend on the processing

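No OGP46 call on the 8 genes appeared under any alternative, and the 4 genes called higher in NB4 controls kept their calls in all of them. SP140 joined them without a filter on low values. SUMO2 lost its call, leaving 0 genes called lower in NB4, under TPM scaling (-0.42) and median centring (-0.57), each without and with the replicate block. Alone, the block changed no call on the 8 genes. Counts over all genes depended on scaling. In NB4, OGP46 gave 170 higher and 13 lower genes as deposited, 595 and 135 with the replicate block, 214 and 177 with the block and centring, 309 and 139 with the block and TPM scaling, and 0 under TPM scaling, centring or quantile normalization without it. Leaving out 1 sample gave 0 to 368 higher and 0 to 28 lower genes. The 368 came without NB4 OGP46 sample 2, and without any other sample at most 1 gene was higher. In Kasumi-1 the counts were 2 and 2 as deposited, 32 and 41 with the block, and 0 to 52 and 0 to 66 over all alternatives. The interaction ran from 0 to 223 higher genes and from 0 to 46 lower ones, with 223 and 14 under the block. Between the lines, 2790 higher and 3659 lower genes became 3585 and 3004 under TPM scaling, 3186 and 3184 under quantile normalization and 2031 to 3589 and 2720 to 3862 over all alternatives. The control samples of the 2 lines share only a number (r of -0.049, 0.018 and -0.005), and the block gave 2792 and 3674.

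Log2 fold changes that were not called and turned sign lay near 0. With OGP46 in NB4 these were DAXX (-0.067 under TPM scaling, -0.13 under centring, -0.12 under quantile normalization), SUMO2 (-0.082, -0.15 and -0.082), SP110 (-0.028 under centring, -0.047 under quantile normalization) and PML (-0.0043 under quantile normalization), and the block left the values under TPM scaling and centring as they were. Without single samples SUMO3 ranged from -0.17 to 0.0069 and DAXX from -0.0059 to 0.15. With OGP46 in Kasumi-1, RNF4 came to 0.0048 under TPM scaling, and without single samples RNF4 ranged from -0.050 to 0.048, SUMO2 from -0.074 to 0.015 and SP110 from -0.29 to 0.13. The upper end of each of these ranges came without Kasumi-1 control 2. In the interaction, DAXX came to -0.0083 under TPM scaling and -0.0012 under centring, SUMO2 to -0.079, -0.071 and -0.070 under TPM scaling, centring and quantile normalization, SP110 to -0.0080 under quantile normalization and -0.013 without both controls named above, and SUMO3 ranged from -0.11 to 0.076 without single samples. Between the lines, PML came to 0.081 under TPM scaling. The cause of these changes was not tested.

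Leaving out 1 sample gave 4 genes called higher and 1 lower between the lines each time. Depth is unknown, and SP140 and Kasumi-1 SP110 lie at levels where 3 samples bound a change only loosely.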
